A study of Mus musculus with 12 samples.

Results

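Lipopolysaccharide (LPS), an outer membrane component of Gram-negative bacteria, was applied to mouse peritoneal macrophages of 2 genotype labels, and the results below describe the genes on which LPS acted differently in the 2. All macrophages came from C57BL/6 mice at postnatal week 10, and all carried Lyz2Cre, a Cre recombinase expressed from the lysozyme 2 locus of myeloid cells. The 4 groups were Lyz2Cre without and with LPS, and Lyz2Cre-BHLHE40-Fl without and with LPS, with 3 libraries each. Lyz2Cre-BHLHE40-Fl is the label for macrophages that also carry a floxed BHLHE40 allele. For LPS dose and duration, and for the floxed part of the gene, nothing is stated in the sources used here. The interaction was taken as the log2 effect of LPS in the BHLHE40-Fl-labelled libraries minus that in the Lyz2Cre libraries, so a positive value means a larger rise or a smaller fall in the BHLHE40-Fl-labelled libraries. It was computed for 20419 of the 53465 listed genes, those reaching 1 on the deposited scale in 3 or more of the 12 libraries. Exactly 3 libraries reached that value in 1199 genes, whose means had a median of 0.575. A further 1908 genes reached it in exactly 2 libraries and were left out, with a median of 0.358.

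LPS binds CD14 and the TLR4 receptor complex, which signals along a MyD88 arm and a TRIF arm. The MyD88 arm activates NF-kB and switches on cytokines and chemokines, while the TRIF arm activates IRF3 and the type I interferon gene Ifnb1, whose product acts back on the cells and induces the interferon-stimulated genes. Activated macrophages also shift towards glycolysis, repress cholesterol synthesis and alter their iron handling. BHLHE40 is a basic helix-loop-helix factor that binds E-box motifs, acts mostly as a repressor, and is known in macrophages and T cells for repressing the anti-inflammatory cytokine gene Il10. Whether its allele changes the response to LPS is the question an interaction addresses. An interaction can arise from a difference between genotype labels that is already there without LPS, from one that appears only with LPS, or from both, and each call below was sorted by that origin.

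The targeted gene did not follow its label. Bhlhe40 (chr6:108660629-108666925 in mm10, plus strand) stood at 4886, 4737 and 5306 in the Lyz2Cre controls and at 8046, 7617 and 8016 in the BHLHE40-Fl-labelled controls. LPS libraries had 2544, 2212 and 2644 in Lyz2Cre and at 1956, 2415 and 2327 in the BHLHE40-Fl-labelled libraries. The labelled controls were thus above all Lyz2Cre controls, and the groups overlapped with LPS. Its interaction was -0.81 ± 0.12 (SE, limma adjusted p = 8.45e-05), from a gap of 0.67 between the control groups and of -0.15 with LPS (limma adjusted p = 0.201). A count over the whole gene does not check a deletion of some exons, so the directions below follow the labels as they stand. Bhlhe41, the close paralog, had an interaction of -0.45 ± 0.16 that was not called (limma adjusted p = 0.0685). Lyz2 itself, the locus that carries Cre, stood at 766 ± 69.8 (SD, n = 3) in the Lyz2Cre controls and 170 ± 31.5 in the BHLHE40-Fl-labelled controls. With LPS the 2 labels had 970 ± 56.2 and 769 ± 67.9, and the interaction was 1.84 ± 0.17 (limma adjusted p = 3.93e-07).

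All values are on the deposited scale, which is a read count scaled by a factor of its library, and rest on 20489415 to 29354869 reads per library. The labels do not say whether the replicates are separate animals or cultures, so the spread behind each p-value is that between these samples and may be technical. Macrophage genes were present throughout, with all 20 general macrophage markers tested. Their summed level was 248034 to 254904 in the Lyz2Cre controls and 154207 to 161349 in the BHLHE40-Fl-labelled controls. Markers of other cells also differed between the labels. The 25 mesothelial and stromal markers summed to 2097 to 2260 and 4467 to 5858 in the Lyz2Cre libraries without and with LPS, against 13043 to 16726 and 13742 to 17882 in the BHLHE40-Fl-labelled ones. Upk3b, a mesothelial gene, had no read in the 6 Lyz2Cre libraries and stood at 495, 595 and 796 in the labelled controls. The 7 neutrophil markers tested summed to 24693 to 28842 in the Lyz2Cre controls and 1818 to 1929 in the labelled controls. With LPS they summed to 17566 to 17772 and 4238 to 4750. In the labelled controls 4 of the 7 were called lower and 3 higher, where 16.6% and 15% of all tested genes were. The 15 T and NK cell markers summed to 10376 to 12198 in the Lyz2Cre controls and 28732 to 35757 in the labelled controls. Of these 15, 11 were called lower and 1 higher in the labelled controls. In bulk RNA, fewer cells of a type and less RNA per cell cannot be told apart. The part of these markers in the results below was not tested. The mitochondrial share of reads was 0.756% in replicate 1 of the BHLHE40-Fl-labelled libraries with LPS and 1.92% and 1.89% in the other 2. The interferon-stimulated genes differed among the Lyz2Cre controls, where their summed level ran from 57779 in replicate 3 to 159572 in replicate 2, against 18001 to 19532 in the labelled controls.

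LPS had a different effect in the 2 genotype labels for 3846 genes, which is 18.8% of those tested (limma on log2(value + 1), Benjamini-Hochberg adjusted p below 0.05). The interaction was positive for 1944 of them (9.52% of the genes tested) and negative for 1902 (9.31%). With equal library totals this near-even split became 2576 and 1443, and with edgeR on the recovered reads 2291 and 1474. Changes of at least 1 log2 unit made up 809 of the positive (3.96% of the genes tested) and 703 of the negative calls (3.44%). Over all tested genes the median interaction was -0.03, with quartiles of -0.47 and 0.40. Genotype labels differed in the controls for 31.6% of the genes and with LPS for 37.4%, and their libraries did not overlap for 41.3% and 45.9%. LPS itself changed 48.9% of the genes in the Lyz2Cre libraries and 50.5% in the BHLHE40-Fl-labelled ones.

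Sorting the 3846 calls by the genotype gap in each treatment (the log2 difference between labels, BHLHE40-Fl-labelled minus Lyz2Cre) gave 4 main origins. The gap was called only in the controls for 957 genes, which is 4.69% of the genes tested and 24.9% of the calls, referred to below as unequal controls. Of these 499 had a positive interaction (2.44% of the genes tested) and 458 a negative one (2.24%). It was called only with LPS for 1393 genes (6.82% of those tested, 36.2% of the calls), referred to as unequal LPS levels, with 706 positive (3.46%) and 687 negative (3.36%). In 418 genes it was called in both with opposite signs (2.05% of those tested), 209 positive and 209 negative (1.02% each). In 997 it was called in both with the same sign but a different size (4.88%), with 493 positive (2.41%) and 504 negative (2.47%). For the remaining 81 genes neither gap was called, 37 positive (0.181%) and 44 negative (0.215%). The gaps use the same libraries as the interaction, so these shares describe the calls and test nothing. A gap that is not called is not shown to be absent. Under a stricter rule, with a called gap of at least 1 log2 unit in one treatment and a 95% confidence interval within 1 log2 unit of 0 in the other, 445 genes came from unequal controls and 415 from unequal LPS levels. The strict set from unequal controls held 302 positive and 143 negative interactions, while the strict set from unequal LPS levels held 186 and 229. Among the 997 genes with gaps of one sign, the positive interactions had the larger gap in the controls in 349 of 493 genes and the negative ones with LPS in 325 of 504.

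**Figure D1:**
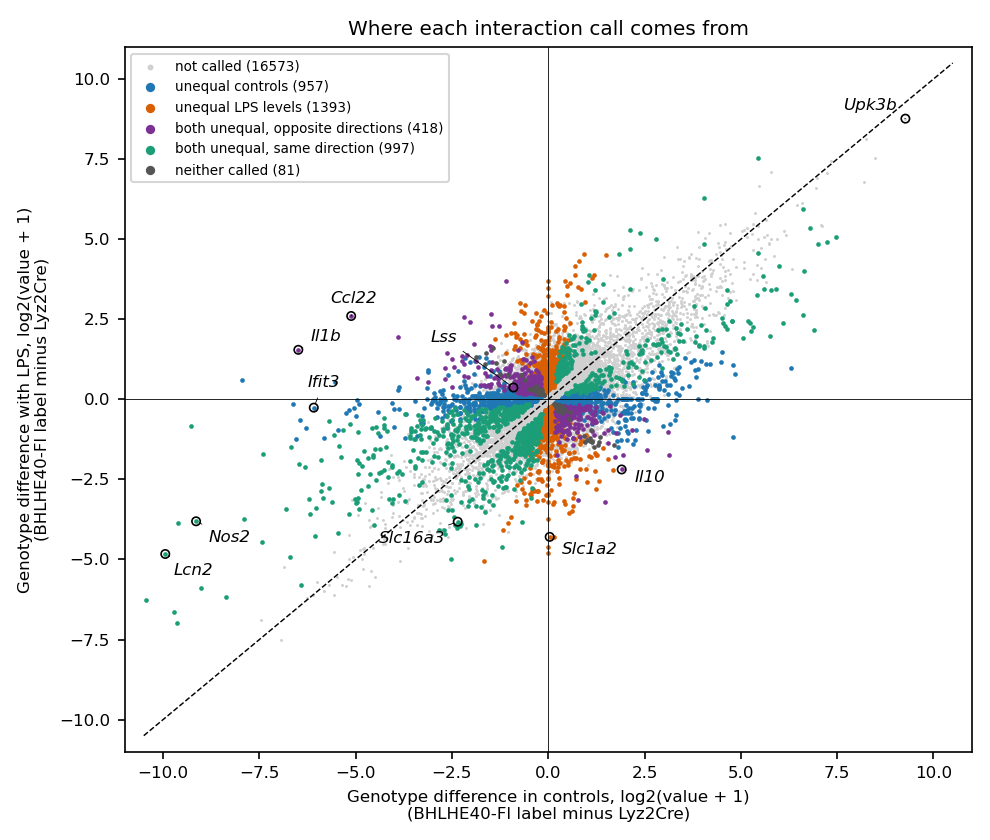
Genotype gap with LPS (vertical axis) against the genotype gap in controls (horizontal axis), both as log2(value + 1) differences, BHLHE40-Fl-labelled minus Lyz2Cre, 1 point per tested gene, coloured by the origin of its interaction call. The dashed line marks equal gaps; Ifit3 lies far to the left on the horizontal line (957 genes of unequal controls), Slc1a2 far down on the vertical line (1393 genes of unequal LPS levels), and Upk3b near the dashed line without a call.

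The gene lists of macrophage activation differed in origin. Counts of calls in the lists below are to be read against 9.52% positive and 9.31% negative calls over all tested genes. Interferon-stimulated genes, class I antigen presentation, chemokines and cholesterol synthesis held positive calls and no negative one. Lysosomal genes held negative calls and no positive one, and glycolysis and the HIF-1 targets held more negative than positive calls. Ribosomal proteins, with 26 genes tested, held no call in either direction. Chemokines held 1 negative call without labelled LPS replicate 1 or Lyz2Cre control replicate 3, and the ribosomal proteins 1 negative or 1 positive call without labelled LPS replicate 1 or 2. Medians of the 2 gaps show the same lists from the side of the genotype. Interferon-stimulated genes had a median gap of -2.69 in the controls and -0.18 with LPS, whereas glycolysis had -1.25 and -1.69. Over all tested genes both medians were close to 0, at 0.00 and -0.02.

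**Figure D2:**
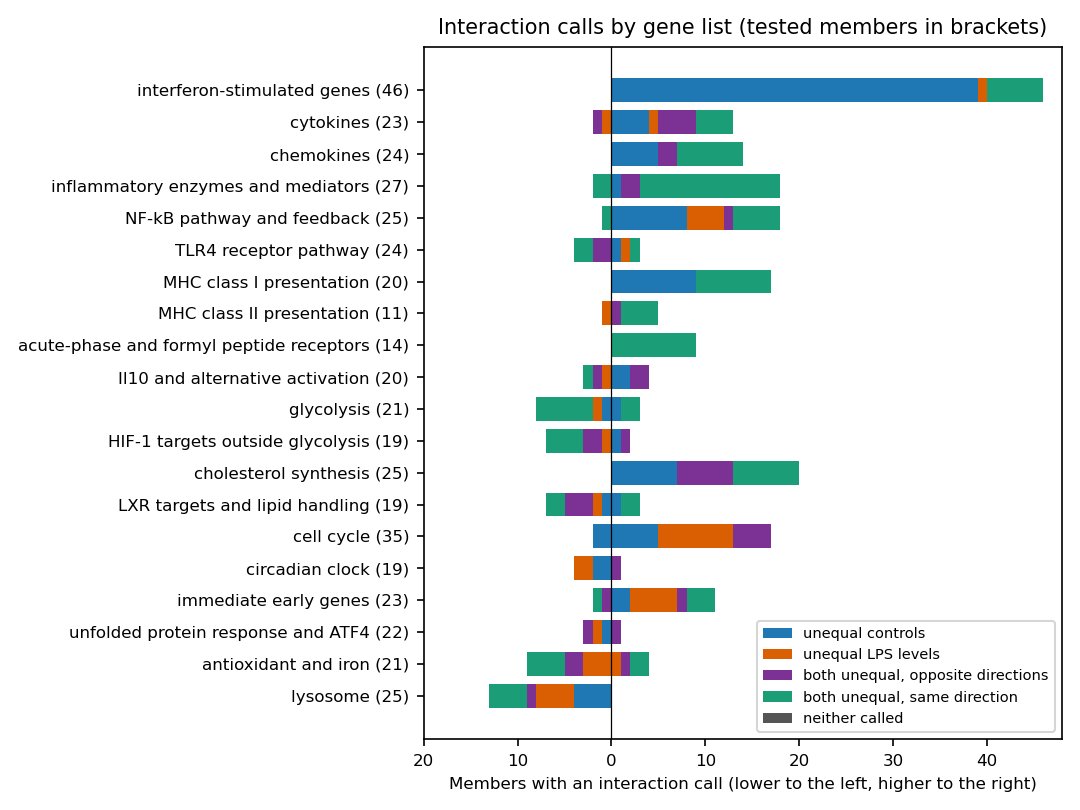
Number of members with an interaction call in each gene list, positive calls to the right and negative calls to the left of 0, coloured by the origin of the call, with the number of members tested in brackets. The interferon-stimulated list is almost wholly in the colour of unequal controls (39 of 46), and the inflammatory enzymes are mostly in the colour of gaps of one sign (15 of 18 positive calls).

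**Figure D3:**
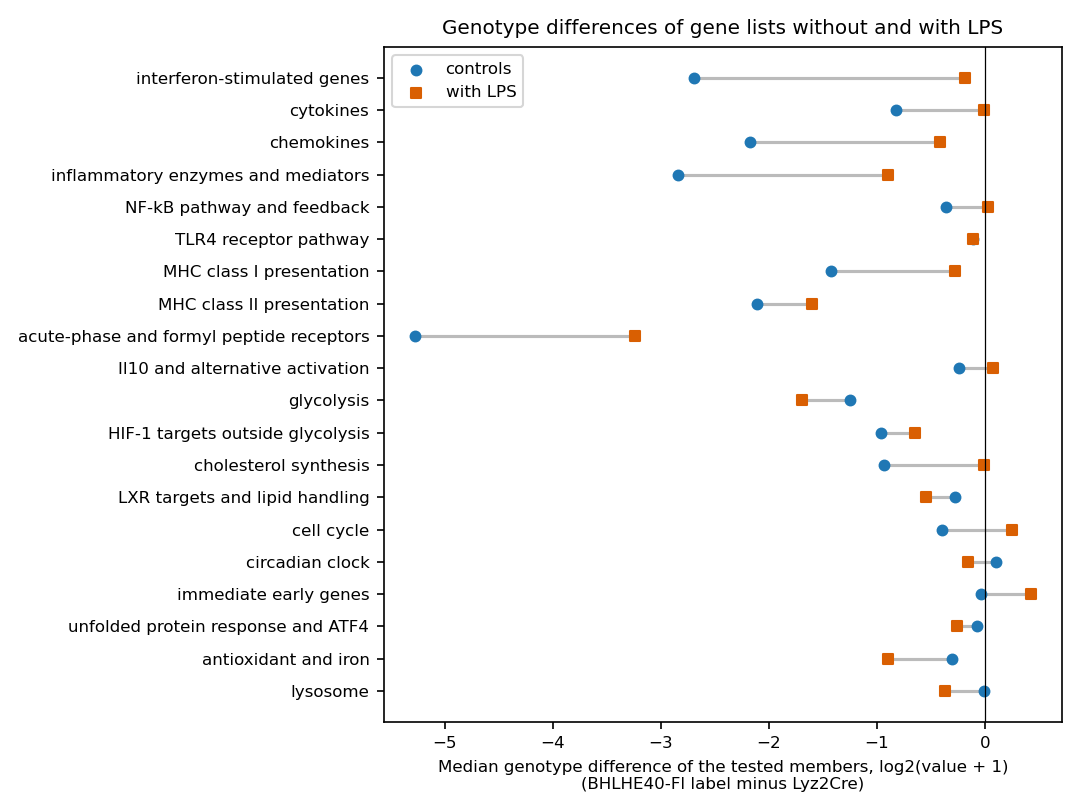
Median genotype gap of each gene list in controls (circles) and with LPS (squares), in log2(value + 1) units, BHLHE40-Fl-labelled minus Lyz2Cre. The grey line between them is long for interferon-stimulated genes (-2.69 to -0.18) and chemokines (-2.18 to -0.42), and for glycolysis the square lies further from 0 than the circle (-1.69 against -1.25).

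Interferon-stimulated genes were the clearest case of unequal controls. All 46 tested members had a positive interaction, against a background of 9.52%, with a median of 2.36. The call came from unequal controls in 39 of them, from gaps of one sign in 6 and from unequal LPS levels in 1, and 32 met the stricter rule for unequal controls. Ifit3 (chr19:34583531-34588731, plus strand), an interferon-induced antiviral protein, stood at 832, 2510 and 275 in the Lyz2Cre controls and at 10.2, 8.7 and 15.9 in the BHLHE40-Fl-labelled controls. With LPS it reached 50426, 58357 and 54634 in Lyz2Cre and 49377, 44307 and 42856 in the labelled libraries. The control groups lay far apart and the LPS groups close together, although they did not overlap. The interaction of Ifit3 was 5.83 ± 0.67 (limma adjusted p = 4.92e-06), with a gap of -6.09 in controls and of -0.26 with LPS (limma adjusted p = 0.715).

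Irf7, the transcription factor that amplifies interferon production, stood at 8054, 14704 and 2388 in the Lyz2Cre controls against 211, 207 and 207 in the labelled controls. With LPS its means were 52535 ± 4905 and 51808 ± 1588 (SD, n = 3), and the libraries of the labels overlapped. Its gap with LPS of -0.02 had a 95% confidence interval of -0.83 to 0.79, inside 1 log2 unit. Ifi206 and Ifi213, members of the interferon-inducible p200 family, had control means of 251 ± 239 and 305 ± 270 in Lyz2Cre and of 1.03 ± 1.23 and 1.73 ± 1.07 in the labelled libraries. With LPS they reached 6977 ± 590 and 11113 ± 828 in Lyz2Cre and 6373 ± 938 and 7041 ± 414 in the labelled libraries, with interactions of 6.48 and 5.79. Ifi44 had an interaction of 5.33 ± 0.82, with a gap with LPS of -1.23 that was not called (limma adjusted p = 0.109). With LPS it had 12291 ± 1104 in Lyz2Cre and 5223 ± 256 in the labelled libraries, which do not overlap. The fit shares 1 estimate of the spread over the 4 groups, so scatter among the Lyz2Cre controls also widens the error of the gap with LPS. The Lyz2Cre controls were the more variable side for these genes, with replicate 2 highest and replicate 3 lowest for Ifit3, Irf7, Ifi206, Ifi213 and Ifi44. Without that replicate 2 the list still held 46 positive calls with a median of 2.06, and without replicate 3 it held 46 with a median of 2.78.

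The upstream interferon gene itself did not share this pattern. Ifnb1 stood at 413, 895 and 770 with LPS in Lyz2Cre and at 112, 92 and 80.1 in the labelled libraries, and it had at most 3.2 in any control library. Every labelled library with LPS was below every Lyz2Cre one. Its interaction of -2.10 ± 0.69 (limma adjusted p = 0.041) was lost in 10 of 12 fits that left out 1 library. The exceptions were replicate 2 of the Lyz2Cre controls and replicate 1 of Lyz2Cre with LPS. With edgeR the interaction of Ifnb1 was 0.49, so its sign is not settled here. The gap with LPS of -2.79 had a limma adjusted p of 0.000181.

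Because the interferon-stimulated genes moved together, the 250 bases upstream of their RefSeq start sites (build GRCm38.p6) were searched for the core of the interferon-stimulated response element, taken as GAAA, any 2 bases and GAAA, on both strands. It was found in 20 of the 35 list members with a window (57.1%), in 44 of 375 genes of the unequal-controls class with a positive interaction (11.7%), and in 421 of the 12299 tested genes with a window (3.42%). Over all 32851 windows of the table the share was 2.98%. The interferon response list is itself defined by this biology, and a match describes the letters of a window, not a bound site. Windows of 3 genes with LPS levels that were not called different are shown 5′ to 3′, with the matches in capitals; the start sites lie at the right-hand end. The windows are chr19:34583279-34583528 on the plus strand for Ifit3, chr1:173491319-173491568 on the minus strand for Ifi206, and chr5:92348890-92349139 on the minus strand for Cxcl10. In Ifit3 both matches are on the opposite strand and read TTTC, 2 bases and TTTC.
Ifit3: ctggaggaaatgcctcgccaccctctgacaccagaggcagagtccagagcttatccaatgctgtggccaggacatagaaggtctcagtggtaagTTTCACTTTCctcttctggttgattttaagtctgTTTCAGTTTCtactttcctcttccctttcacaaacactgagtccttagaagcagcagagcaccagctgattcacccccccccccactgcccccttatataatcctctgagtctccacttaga
Ifi206: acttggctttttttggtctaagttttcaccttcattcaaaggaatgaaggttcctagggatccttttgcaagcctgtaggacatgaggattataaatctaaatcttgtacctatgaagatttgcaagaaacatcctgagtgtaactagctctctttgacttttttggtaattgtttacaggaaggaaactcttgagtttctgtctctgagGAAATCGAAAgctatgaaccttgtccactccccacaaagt
Cxcl10: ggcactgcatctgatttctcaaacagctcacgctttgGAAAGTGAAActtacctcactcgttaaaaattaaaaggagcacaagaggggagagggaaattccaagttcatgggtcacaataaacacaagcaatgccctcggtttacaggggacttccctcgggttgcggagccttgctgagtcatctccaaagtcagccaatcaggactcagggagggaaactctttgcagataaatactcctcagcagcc

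Genes of class I antigen presentation, several of which are known interferon targets, were lower in the labelled controls in 20 of 20, and 11 of these 20 were also called lower with LPS. Of all tested genes 16.6% and 19.8% were called lower. Of 20 members tested 17 had a positive interaction and none a negative one, with a median of 0.88 (limma adjusted p below 0.05 in each). Positive calls made up 9.52% of all tested genes. Unequal controls accounted for 9 and gaps of one sign for 8. Nlrc5, the transactivator of class I genes, stood at 2888, 3643 and 2325 in the Lyz2Cre controls and at 481, 553 and 518 in the labelled controls. In the LPS groups it had 28162 ± 301 and 25387 ± 358, which do not overlap, with a gap of -0.15 that was not called (limma adjusted p = 0.324), for an interaction of 2.34 ± 0.16. Tap1, a subunit of the peptide transporter, had 4318 ± 1255 and 861 ± 112 in the controls and an interaction of 2.05 ± 0.21. The class I-like gene H2-Q7 kept a gap of -2.32 with LPS after -4.93 in the controls, and was therefore among the gaps of one sign. Genes of the H2-Q family are near-identical copies, so their counts are uncertain. Ciita, the master regulator of class II genes, went the other way with LPS in the 2 labels. It fell from 307 ± 42.0 to 192 ± 8.65 in Lyz2Cre and rose from 65.8 ± 19.6 to 489 ± 44.2 in the labelled libraries, with an interaction of 3.58 ± 0.23. Among the 11 class II presentation genes tested 5 calls were positive and 1 negative. Without Lyz2Cre LPS replicate 1 these were 3 and 0, and over the alternatives without a minimum change they ran from 3 to 7 and from 0 to 2.

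NF-kB genes and their feedback inhibitors were mostly lower in the labelled controls, and with LPS the called gaps went both ways. Of 25 tested genes 15 were lower and 3 higher in the labelled controls, where 16.6% and 15% of all tested genes were. With LPS 5 were lower and 9 higher, where 19.8% and 17.7% of all tested genes were. The 5 lower with LPS and the 3 higher in the controls were near those shares. The interaction was positive for 18 and negative for 1, with a median of 0.78. Unequal controls gave 8 of these calls, gaps of one sign 6, unequal LPS levels 4 and opposite gaps 1. Nfkbiz, an inducible NF-kB cofactor, stood at 564, 542 and 629 in the Lyz2Cre controls, against 168, 180 and 169 in the labelled controls. Under LPS it had 12936 ± 397 and 12037 ± 190, a gap of -0.10 with a 95% confidence interval of -0.25 to 0.04. The interaction of 1.64 ± 0.10 was close to the control gap of -1.74 in size. Socs3, the feedback inhibitor of cytokine signalling, kept a called gap of -0.65 with LPS after -2.12 in the controls. Zfp36, which destabilises cytokine mRNAs, was a call from unequal LPS levels. It stood at 1160, 1076 and 1446 with LPS in Lyz2Cre and at 2352, 3556 and 3474 in the labelled libraries, while the control gap of -0.31 was not called (limma adjusted p = 0.168). Bcl3, an atypical IkB protein, changed sign from a gap of -1.11 in controls to 0.99 with LPS.

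Receptor and adaptor genes of the TLR4 pathway held fewer calls than the NF-kB list, but by share not fewer than all tested genes. Of 24 tested, 3 were positive and 4 negative, where 9.52% and 9.31% of all tested genes were called. Without labelled LPS replicate 1 the positive calls were 5. Cd14, the LPS co-receptor, stood at 8294 ± 655 in the Lyz2Cre controls and 1431 ± 149 in the labelled controls. With LPS it rose to 31887 ± 1188 and 12006 ± 433, so the labelled libraries rose by a larger factor and remained lower. Ticam1, which encodes the TRIF adaptor, had an interaction of -0.95 ± 0.18. It was higher in the labelled controls (gap 0.58) and lower in the labelled libraries with LPS (gap -0.36). Ikbkg, the regulatory subunit of the IkB kinase, rose in Lyz2Cre from 1623 ± 65.2 to 2706 ± 69.6. It had 1378 ± 104 and 1320 ± 124 in the labelled libraries, for an interaction of -0.80 ± 0.11.

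**Figure D4:**
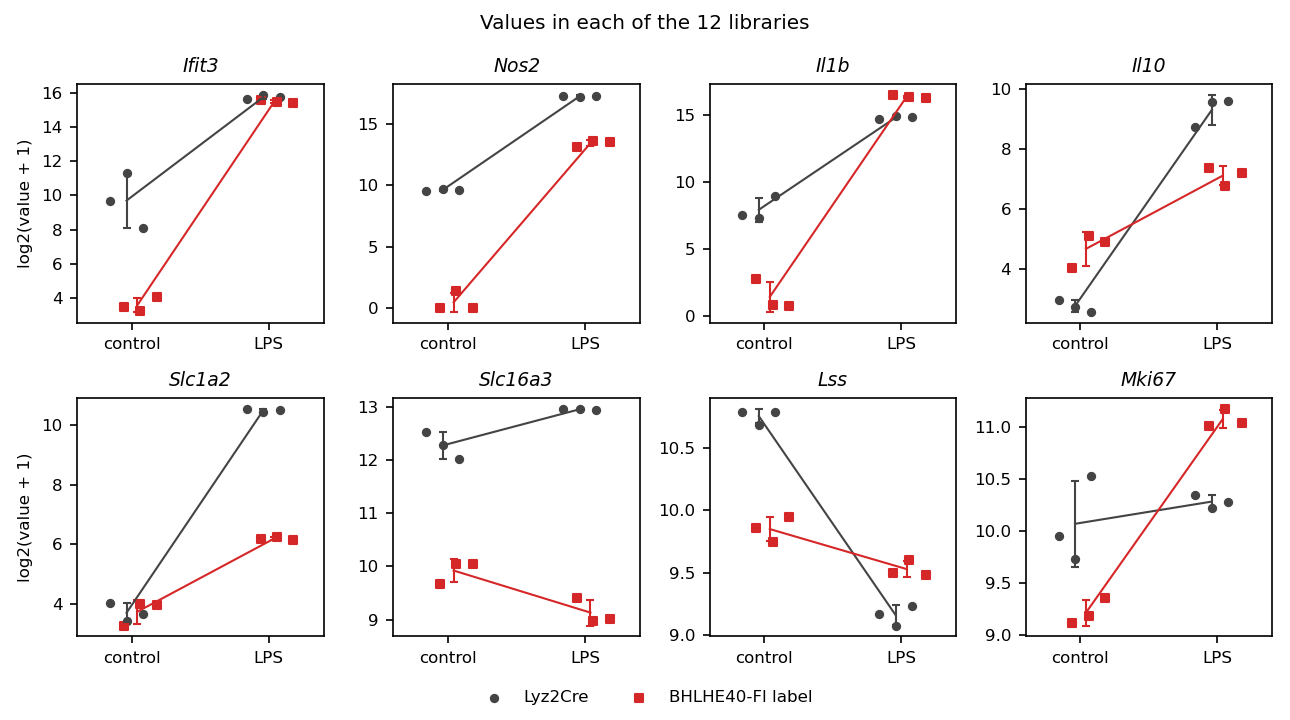
Values of 8 genes in each of the 12 libraries as log2(value + 1), controls on the left and LPS on the right of each panel, circles for Lyz2Cre and squares for the BHLHE40-Fl label, with lines joining group means and error bars of 1 SD. For Ifit3 only the control points lie far apart, for Slc1a2 only the LPS points, for Il1b, Il10, Lss and Mki67 the lines cross, and for Nos2 and Slc16a3 the squares are below the circles in both treatments.

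Cytokine genes included the calls whose gap changed sign. Of 23 cytokines tested 13 had a positive and 2 a negative interaction (median 1.36), with opposite gaps in 4 of the positive and 1 of the negative calls. The negative calls fell to 1 in 10 of the 12 fits without 1 library, the other two being those without Lyz2Cre control replicate 2 and Lyz2Cre LPS replicate 1. Il1b (chr2:129364570-129371139, minus strand), the inflammasome-dependent pyrogen, stood at 186, 161 and 497 in the Lyz2Cre controls and at 5.8, 0.8 and 0.7 in the labelled controls. Under LPS it stood at 26143, 30749 and 29658 in Lyz2Cre and at 90526, 81874 and 80180 in the labelled libraries. Labelled libraries were thus the lowest without LPS and the highest with it. Its gaps were -6.49 and 1.55, and the interaction was 8.03 ± 0.58 (limma adjusted p = 2.47e-08). Il12b, the p40 subunit of IL-12 and IL-23, crossed in the same way, from 17.8 ± 5.49 and 0.267 ± 0.462 in the 2 controls to 2078 ± 253 and 8000 ± 508 with LPS. Il12a, the p35 partner subunit, did not cross. It reached 11302 ± 533 with LPS in Lyz2Cre and 5563 ± 239 in the labelled libraries, from 30.5 ± 10.3 and a listed 0 in all 3 labelled controls.

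Il10 (chr1:131019845-131024974, plus strand) crossed in the opposite direction to Il1b and Il12b. It stood at 6.9, 5.7 and 5.0 in the Lyz2Cre controls and at 15.3, 33.2 and 29 in the labelled controls. With LPS it reached 428, 755 and 781 in Lyz2Cre and 166, 107 and 147 in the labelled libraries. All labelled controls were above, and all labelled libraries with LPS were below, the Lyz2Cre libraries of the same treatment. The gaps were 1.91 and -2.19, and the interaction was -4.10 ± 0.42 (limma adjusted p = 1.35e-06).

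Chemokines gave 14 positive and no negative calls among 24 tested, with a median of 1.19. Ccl5, which attracts T cells and monocytes, had 497, 465 and 283 in the Lyz2Cre controls and 1.5, 0 and 0.7 in the labelled controls. With LPS the values were 17030, 16010 and 19693 in Lyz2Cre and 17714, 34317 and 31129 in the labelled libraries. The control groups were far apart, the LPS groups overlapped, and the gap of 0.61 with LPS was not called (limma adjusted p = 0.104). Ccl22, a ligand of CCR4, crossed from 64.2 ± 19.6 and 1.70 ± 2.94 in the controls to 215 ± 39.4 and 1353 ± 456 with LPS. Cxcl3, a neutrophil attractant, kept gaps of one sign, at -7.91 in the controls and -3.72 with LPS. Cxcl10, a CXCR3 ligand induced by interferon, was low in both controls, at 26.4 ± 13.2 and 12.4 ± 1.22. It rose to 114828 ± 8800 and 138527 ± 3575, and its interaction of 1.19 ± 0.32 (limma adjusted p = 0.014) was lost with robust variances.

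Inflammatory effector enzymes and acute-phase genes were the case of unequal gaps of one sign. Among 27 inflammatory enzymes and mediators 18 calls were positive and 2 negative (median 1.26), and 15 of the 18 kept a gap of the same sign with LPS. Acod1, which makes the antimicrobial metabolite itaconate, stood at 8869, 9513 and 11316 in the Lyz2Cre controls and at 30.5, 11.1 and 9.4 in the labelled controls. With LPS it reached 291908, 297188 and 286229 in Lyz2Cre and 172130, 162232 and 158888 in the labelled libraries. The labels did not overlap in either treatment, and the gap shrank from -9.28 to -0.83, for an interaction of 8.45 ± 0.36. Nos2 (chr11:78920787-78960254, plus strand), the inducible nitric oxide synthase, had 713, 824 and 794 in the Lyz2Cre controls and 0, 1.6 and 0 in the labelled controls. In the LPS libraries it had 155110, 143292 and 159928 against 8980, 12224 and 11804, with a gap of -3.81 that remained after -9.14 in the controls. The interaction of Nos2 was 5.33 ± 0.35, a positive value although the labelled libraries were lower in both treatments. The 3 labelled controls held 2 reads of Nos2 in all, so the size of this value depends on the pseudocount, from 3.35 with 5 to 7.75 with 0.1. The same holds for Il12b, Il12a, Ccl5 and Fpr2, whose labelled controls held 3 reads or fewer.

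All 9 called genes among 14 acute-phase and formyl peptide receptor genes were positive and kept a gap of one sign, with medians of -5.28 in the controls and -3.24 with LPS. Lcn2, the siderophore-binding lipocalin, stood at 7640, 7941 and 6772 in the Lyz2Cre controls and barely moved with LPS, at 7761, 8024 and 8686. In the labelled libraries it went from 14.5, 2.4 and 7.2 to 250, 314 and 297. The interaction of 5.11 ± 0.46 therefore belonged to a gene without a comparable rise in Lyz2Cre, where the log2 LPS effect was 0.13. Hp, haptoglobin, repeated this arrangement with 11634 ± 1215 and 10864 ± 806 in Lyz2Cre and 34.0 ± 1.97 and 152 ± 33.3 in the labelled libraries. Fpr2, a formyl peptide receptor, was listed at 0 in all 3 labelled controls and at 699, 741 and 680 with LPS, against 784 ± 98.7 and 10346 ± 554 in Lyz2Cre. Saa3, an acute-phase serum amyloid that also serves as a marker of large peritoneal macrophages, had gaps of -6.06 and -4.28.

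Tnf and Il6 were both induced strongly in each label. Tnf stood at 681, 822 and 723 in the Lyz2Cre controls and at 144, 141 and 163 in the labelled controls, and with LPS at 169537 ± 5167 and 106979 ± 2742. Its gap narrowed from -2.30 to -0.66 and its interaction was 1.64 ± 0.11. Il6 had 17.1 ± 7.91 and 1.23 ± 0.84 in the controls and 71584 ± 3823 and 27787 ± 2898 with LPS. The interaction of Il6, 1.63 ± 0.34 (limma adjusted p = 0.00212), rests on control values of a few reads and was 0.41 and not called with a pseudocount of 5. Ptgs2, the inducible cyclooxygenase, and Arg1, arginase 1, had large gaps without a called interaction. Ptgs2 kept gaps of -2.26 and -1.81, with an interaction of 0.45 (95% confidence interval -0.04 to 0.93). Arg1 kept -4.88 and -4.69, with an interaction of 0.19 (95% confidence interval -0.18 to 0.55). Both became positive calls with quantile normalization, at 0.91 and 0.996, and Ptgs2 also without BHLHE40-Fl-labelled control replicate 1, at 0.71.

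The sign of an interaction depended on the scale for part of these genes. On the log2 scale a gene that starts far lower and ends slightly lower has the larger effect, while its absolute increase is smaller. Among the 3846 calls 440 (11.4%) had the opposite sign when the increases were compared as differences of group means on the deposited scale. They comprised 329 of the positive and 111 of the negative calls, and 240 of the 493 positive calls with gaps of one sign. Only signs were compared, without a test, so small differences may lie within the spread of the libraries. Nos2 increased by 152000 in Lyz2Cre and by 11002 in the labelled libraries, and Acod1 by 281875 and 164400. For Tnf the increases were 168796 and 106829, and for Il6 they were 71567 and 27786. Il1b and Cxcl10 increased more in the labelled libraries on both scales, by 84191 against 28569 and by 138514 against 114802. Absolute increases depend on how the libraries are scaled. The deposited values had mean totals of 22693602 and 37605645 in Lyz2Cre without and with LPS, and of 20073802 and 30832914 in the labelled libraries. The linear comparison was not run with equal totals.

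**Figure D5:**
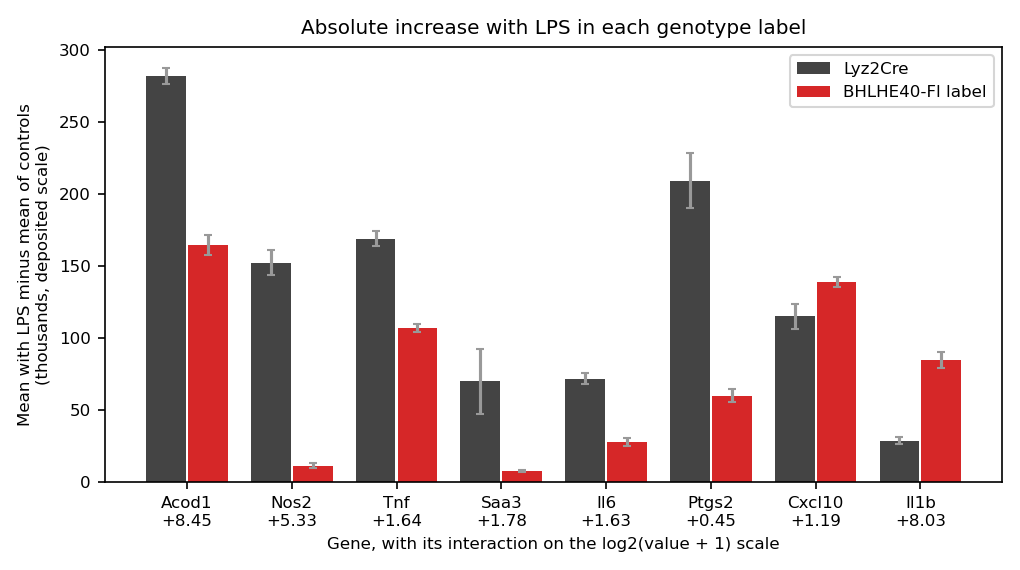
Mean with LPS minus mean of controls in each genotype label for 8 inflammatory genes, divided by 1000 on the deposited scale, with bars from 0 and error bars equal to the square root of the summed squared SDs of both groups. Numbers below the names are interactions on the log2(value + 1) scale; they are positive for all 8, while the bar of the BHLHE40-Fl label is the shorter one for Acod1, Nos2, Tnf, Saa3, Il6 and Ptgs2.

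Several genes that started alike were unequal with LPS alone, with strongly negative interactions. Slc1a2 (chr2:102658659-102790784, plus strand), a glutamate transporter, stood at 15.4, 9.7 and 11.7 in the Lyz2Cre controls and at 8.7, 15 and 14.5 in the labelled controls. With LPS it reached 1466, 1382 and 1456 in Lyz2Cre and 71.4, 75.1 and 70.1 in the labelled libraries. The controls overlapped and the LPS groups were far apart, for an interaction of -4.33 ± 0.32 (limma adjusted p = 2.92e-08). Calcr, the calcitonin receptor, was listed at 0 in all 6 controls and reached 45.9, 41.4 and 40.4 with LPS in Lyz2Cre, against 0, 1.5 and 1.3 in the labelled libraries. Cnksr2, a scaffold protein of Ras signalling, and Il1f6, which encodes IL-36 alpha, had the same arrangement at means of 27.0 ± 3.88 and 33.3 ± 4.62 with LPS in Lyz2Cre and of 0 and 0.833 in the labelled libraries. The calls of Calcr, Cnksr2 and Il1f6 were lost with edgeR, and their log2 sizes depend on the pseudocount.

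Cxcr3, Ccr2, Srxn1 and Txnrd1 were lower in the labelled libraries with LPS and had no called gap in the controls. Cxcr3, the receptor of Cxcl10, had 26.0 ± 5.82 and 39.7 ± 4.01 in the controls, and with LPS 21.7 ± 3.53 in Lyz2Cre and 1.27 ± 1.17 in the labelled libraries. Ccr2, the receptor that brings monocytes out of the bone marrow, stood at 69.5, 67.6 and 70 with LPS in Lyz2Cre and at 11.7, 12.3 and 5.0 in the labelled libraries, after control means of 72.1 ± 8.63 and 54.5 ± 1.55. The control gaps of 0.61 for Cxcr3 and -0.39 for Ccr2 were not called (limma adjusted p = 0.322 and 0.345), although the control libraries of the labels do not overlap for either gene. The interactions were -4.09 ± 0.60 for Cxcr3 and -2.41 ± 0.40 for Ccr2. Srxn1, the sulfiredoxin that repairs oxidised peroxiredoxins, was level in 3 of the 4 groups. It stood at 2474 ± 84.0 and 2509 ± 60.5 in the controls and at 2425 ± 139 with LPS in Lyz2Cre, and fell to 728 ± 68.3 with LPS in the labelled libraries. Txnrd1, thioredoxin reductase, rose in Lyz2Cre from 4168 ± 159 to 10770 ± 368 and in the labelled libraries from 4294 ± 188 to 5659 ± 273.

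Cnr2, the cannabinoid receptor 2, fell with LPS in both labels. It stood at 942, 914 and 827 in the Lyz2Cre controls and 1078, 1093 and 1091 in the labelled controls, and at 22.2, 17.9 and 17.1 and 14, 7.7 and 7.5 with LPS. Its interaction was -1.23 ± 0.27 (limma adjusted p = 0.00373), with a control gap of 0.28 that was not called. Pdgfrb, a growth factor receptor among the stromal markers, rose from 55.6 ± 2.61 to 1132 ± 86.1 in Lyz2Cre and from 57.4 ± 2.55 to 471 ± 88.1 in the labelled libraries.

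Hpgd, Creb3l1, Hamp and Etl4 were among the 706 positive calls from unequal LPS levels. Hpgd, which degrades prostaglandins, stood at 4.2, 6.9 and 6.2 with LPS in Lyz2Cre and at 123, 96.6 and 143 in the labelled libraries. Its control libraries overlapped, and the interaction was 3.48 ± 0.65 (limma adjusted p = 0.000837). Creb3l1, a membrane-bound transcription factor of the secretory pathway, had control means of 44.8 ± 11.3 and 29.7 ± 11.4. The LPS groups had 32.7 ± 13.5 in Lyz2Cre and 210 ± 54.4 in the labelled libraries. Hamp, the iron hormone hepcidin, was listed at 0 in all 6 controls. It stood at 8.3, 6.9 and 1.6 with LPS in Lyz2Cre and at 73.7, 69 and 77.6 in the labelled libraries, and its interaction of 3.69 was lost with edgeR and DESeq2. Etl4, which the deposited table lists under that name, fell from 31.9 ± 9.39 to 0.933 ± 0.808 in Lyz2Cre and had 60.3 ± 4.81 and 40.7 ± 5.93 in the labelled libraries.

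Glycolytic genes were lower in the labelled libraries in both treatments, with a median gap of -1.25 in the controls and -1.69 with LPS. The median gap also lay further from 0 with LPS in other lists, such as the antioxidant and iron genes, at -0.30 and -0.90. Of 21 genes tested 19 were lower in the labelled controls and 18 with LPS, where 16.6% and 19.8% of all genes were called lower. The interaction was negative for 8 and positive for 3 genes, where 9.31% and 9.52% of all genes were called. The negative calls ran from 7 to 9 over the alternatives without a minimum change. The positive calls fell to 1 without any of Lyz2Cre control replicates 1 and 2, labelled control replicates 1 and 3, Lyz2Cre LPS replicate 1 and labelled LPS replicate 2. They rose to 5 with equal library totals and with quantile normalization. In 6 of the 8 negative calls the gap kept its sign and was larger with LPS. Slc16a3, the lactate exporter MCT4, stood at 5865, 4975 and 4146 in the Lyz2Cre controls and at 816, 1055 and 1057 in the labelled controls. Under LPS it had 7929, 7966 and 7875 in Lyz2Cre and 680, 500 and 516 in the labelled libraries. The labels moved apart, from a gap of -2.35 to -3.82, for an interaction of -1.47 ± 0.18 (limma adjusted p = 1.25e-05). Pfkl, the liver-type phosphofructokinase, had 9292 ± 226 and 9894 ± 433 in Lyz2Cre and 2175 ± 60.1 and 974 ± 77.5 in the labelled libraries, an interaction of -1.25 ± 0.09. Triosephosphate isomerase, Tpi1, had an interaction of -1.31 ± 0.12 and the glucose transporter Slc2a1 one of -0.81 ± 0.09.

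Hk2, the inducible hexokinase, was the largest exception among the glycolytic genes. It rose from 6467 ± 437 to 20097 ± 902 in Lyz2Cre and from 1930 ± 9.81 to 13361 ± 1111 in the labelled libraries, and its gap narrowed from -1.74 to -0.59. Ldha, lactate dehydrogenase A, had 20065 ± 942 and 32984 ± 382 in Lyz2Cre and 8381 ± 131 and 9839 ± 836 in the labelled libraries. Its interaction of -0.49 ± 0.10 was -0.20 and not called with quantile normalization. The list's median interaction was -0.14 and ran from -0.25 to 0.06 over the alternatives, turning positive with quantile normalization.

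Targets of HIF-1 outside glycolysis gave 2 positive and 7 negative calls among 19 tested, with a median of -0.30. The positive calls fell to 1 in 8 of the 12 fits without 1 library, namely any Lyz2Cre LPS library, Lyz2Cre control replicate 3, labelled control replicates 1 and 3 and labelled LPS replicates 2 and 3. They rose to 5 with equal library totals and to 4 with edgeR. The negative calls ran from 5 to 8 over the alternatives without a minimum change. Pdk1, the kinase that keeps pyruvate out of the mitochondrion, stood at 2893, 2795 and 3320 in the Lyz2Cre controls and at 1213, 1186 and 1265 in the labelled controls. Under LPS it stood at 2383, 2490 and 2433 against 439, 333 and 364. Its gap widened from -1.29 to -2.69, for an interaction of -1.40 ± 0.13. Bnip3, a mitophagy receptor, and Vegfa, the vascular growth factor, had interactions of -1.14 and -0.61, and both calls were lost with quantile normalization. Egln3, an oxygen-sensing prolyl hydroxylase, was a positive call at 1.73 ± 0.17. It fell from 542 ± 47.5 to 125 ± 9.79 in Lyz2Cre and from 222 ± 17.9 to 170 ± 13.03 in the labelled libraries.

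Most cholesterol synthesis genes were lowered by LPS in Lyz2Cre, and fewer in the labelled libraries. LPS lowered 18 and raised 3 of the 25 genes in Lyz2Cre, with a median log2 effect of -0.82, where 23.9% of all tested genes were called lower. In the labelled libraries it lowered 8 and raised 9, with a median of 0.00, where 25.6% and 24.9% of all tested genes were called. The interaction was positive for 20 genes and negative for none, where 9.52% and 9.31% of all tested genes were called. The median gap was -0.94 in the controls and 0.00 with LPS, so that the list was lower in the labelled controls and level with LPS at its median. Lss (chr10:76531588-76557138, plus strand), lanosterol synthase, stood at 1767, 1646 and 1765 in the Lyz2Cre controls and at 925, 860 and 985 in the labelled controls. Its LPS values were 577, 539 and 600.3 in Lyz2Cre and 723, 777 and 715 in the labelled libraries. The order of the labels reversed without overlap, and the interaction was 1.27 ± 0.11 (limma adjusted p = 1.75e-07). Acat2 and Stard4, for a thiolase and a sterol carrier, crossed in the same way, with interactions of 1.81 and 1.42.

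Genes of lipid handling and LXR targets were mixed, with 3 positive and 7 negative calls among 19, and 6 positive ones without Lyz2Cre control replicate 3. Scd2, a fatty acid desaturase, had the largest positive interaction of the list. It fell from 10129 ± 809 to 720 ± 47.0 in Lyz2Cre and from 1219 ± 122 to 394 ± 62.4 in the labelled libraries. Abca1, the cholesterol exporter, fell from 39433 ± 2581 to 17177 ± 1213 in Lyz2Cre and rose from 7780 ± 188 to 9340 ± 818 in the labelled libraries. The lipid chaperone Fabp4 was a negative call at -1.61 ± 0.13. Its control means of 11696 ± 1251 and 9632 ± 1059 had a small gap of -0.28 that was called (limma adjusted p = 0.0222). With LPS it had 4535 ± 290 and 1219 ± 56.1, a gap of -1.89 of the same sign. Plin2, which coats lipid droplets, had an interaction of -1.34 ± 0.11, with gaps of 0.79 in the controls and -0.55 with LPS. Pparg, the nuclear receptor of lipid storage, fell from 838 ± 111 to 102 ± 4.38 in Lyz2Cre and from 2849 ± 363 to 140 ± 8.70 in the labelled libraries.

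Cell cycle genes gave 17 positive and 2 negative calls among 35, with a median interaction of 0.55. The negative calls fell to 1 without labelled control replicate 3, Lyz2Cre LPS replicate 2 or labelled LPS replicate 2. The median gap was -0.40 in the controls and 0.25 with LPS, and the positive calls came from unequal LPS levels in 8, unequal controls in 5 and opposite gaps in 4. Mki67 (chr7:135689784-135716361, minus strand), the proliferation marker, stood at 989, 847 and 1479 in the Lyz2Cre controls and at 552, 578 and 652 in the labelled controls. With LPS it stood at 1303, 1197 and 1240 in Lyz2Cre and at 2070, 2317 and 2113 in the labelled libraries. The labelled libraries were lowest without LPS and highest with it, for an interaction of 1.65 ± 0.20. Ccnd2, cyclin D2, rose from 78.9 ± 16.1 to 2710 ± 268 in Lyz2Cre and from 28.8 ± 11 to 8468 ± 794 in the labelled libraries. Cyclin E1, Ccne1, also crossed with an interaction of 1.89 ± 0.14, while Ccnd3, cyclin D3, came from unequal controls with a gap with LPS of 0.15 that was not called.

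Immediate early genes gave 11 positive and 2 negative calls among 23, of which 5 positive ones came from unequal LPS levels. Myc stood at 138, 182 and 133 in the Lyz2Cre controls and 156, 130 and 154 in the labelled controls, which overlap. With LPS it had 107, 86.9 and 66.9 in Lyz2Cre and 165, 279 and 347 in the labelled libraries, for an interaction of 1.58 ± 0.33. The orphan nuclear receptor Nr4a3 had gaps of -1.88 and 1.20 and an interaction of 3.08 ± 0.41.

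Lysosomal genes held negative calls alone. Of 25 tested 13 were negative and none positive, with a median of -0.42, and the lower background was 9.31%. Their origins were spread, with unequal controls, unequal LPS levels and gaps of one sign at 4 each and opposite gaps at 1. Tfeb, the master transcription factor of lysosome formation, stood at 1075, 1011 and 934 in the Lyz2Cre controls and at 1494, 1972 and 1797 in the labelled controls. With LPS it stood at 338, 437 and 448 against 324, 264 and 276. It fell in both labels and the labels changed order, for an interaction of -1.29 ± 0.17 (limma adjusted p = 2.91e-05). Lipa, the acid lipase, came from unequal controls, with 32337 ± 1632 and 64284 ± 5368 in the controls and 18161 ± 564 and 19628 ± 1176 with LPS. Gla, alpha-galactosidase A, was level in the controls at 11452 ± 289 and 11379 ± 107. With LPS it had 15396 ± 732 in Lyz2Cre and 9112 ± 546 in the labelled libraries, a gap of -0.76. Ctsk, the collagen-degrading cathepsin K, had an interaction of -0.71 ± 0.11. With equal library totals and with quantile normalization 1 lysosomal gene became a positive call.

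The E-box CACGTG, the motif that BHLHE40 and the TFEB family share, was searched in the same upstream windows on both strands, where it reads the same. It was found in 8 of the 21 lysosomal genes with a window (38.1%), in none of the 35 interferon-stimulated genes, and in 1152 of 12299 tested genes with a window (9.37%). Windows of all genes in the table held it in 6.02%. In the other gene lists with windows the share ran from none of 17 cytokine genes to 5 of 16 clock genes (31.25%). Cholesterol synthesis, a list with positive calls alone, held the motif in 4 of 17 genes (23.5%), so a high share was not particular to the lysosomal list. By origin, the shares were 8.53% for positive and 11.1% for negative calls from unequal controls, and 11.8% and 11.6% for those from unequal LPS levels. Among calls with opposite gaps 9 of 167 positive (5.39%) and 21 of 161 negative ones held it, among gaps of one sign 44 of 366 and 41 of 389, and among calls with neither gap called 4 of 24 and 5 of 33. None of these shares was tested, and the letters say nothing of binding. The window of Gla (chrX:134601006-134601255, minus strand) is shown because Gla differed only with LPS and its window holds 2 matches, in capitals.
Gla: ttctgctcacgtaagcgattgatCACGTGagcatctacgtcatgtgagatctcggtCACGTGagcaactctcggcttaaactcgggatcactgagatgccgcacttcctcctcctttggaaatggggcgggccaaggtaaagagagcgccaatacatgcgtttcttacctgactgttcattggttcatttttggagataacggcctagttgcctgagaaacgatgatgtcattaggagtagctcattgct

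Antioxidant and iron genes gave 4 positive and 9 negative calls among 21, with a median of -0.45 that stayed negative under every alternative run (-0.52 to -0.29). Slc40a1, the iron exporter ferroportin, stood at 43.1, 30 and 29.3 in the Lyz2Cre controls and at 108, 155 and 134 in the labelled controls. With LPS it stood at 15.3, 6.9 and 17.1 against 2.3, 4.6 and 2.5. The labelled libraries were thus higher without LPS and lower with it, for an interaction of -3.65 ± 0.52.

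Marker genes of other cells were also among the calls. Of the 25 mesothelial and stromal markers 1 call was positive and 7 were negative, with a median of -0.78, where 9.52% and 9.31% of all tested genes were called. Without Lyz2Cre LPS replicate 3 the negative calls were 11, and over the alternatives without a minimum change they ran from 5 to 11. Col6a1, a collagen chain, went from 19.2 ± 6.01 to 54.8 ± 6.29 in Lyz2Cre and had 943 ± 131 and 812 ± 92.4 in the labelled libraries, for an interaction of -1.72 ± 0.27. Lum, a matrix proteoglycan, had -3.76 ± 0.64. Upk3b had large gaps of 9.27 and 8.76 and an interaction of -0.51 that was not called (limma adjusted p = 0.501). Gata6, the transcription factor that defines large peritoneal macrophages, stood at 15.4, 25.1 and 33.5 in the Lyz2Cre controls and at 322, 300 and 378 in the labelled controls. With LPS it had 20.1 ± 0.60 and 178 ± 21.9, and its interaction of -0.68 was not called (limma adjusted p = 0.181). Without Lyz2Cre control replicate 3 it was called, at -0.93. The list of large peritoneal macrophage markers that holds Gata6 leaned the other way. In the labelled controls 12 of its 26 tested members were called lower and 7 higher, where 16.6% and 15% of all tested genes were. With LPS 11 were lower and 6 higher, where 19.8% and 17.7% of all tested genes were. The median gaps of that list were -0.74 and -0.35. Large peritoneal macrophage markers gave 6 positive and 1 negative calls among 26, small peritoneal macrophage and monocyte markers 4 and 1 among 15, and general macrophage markers 4 and 3 among 20. The 3 negative ones fell to 1 without labelled control replicate 1, labelled LPS replicate 2, or Lyz2Cre LPS replicate 2 or 3. Neutrophil markers gave 1 and 1 among 7, T and NK cell markers 1 and 1 among 15, dendritic cell markers 1 and 1 among 7, and B cell (10 tested) and mast cell or eosinophil markers (9 tested) none. Leaving out 1 library moved each count of 0 or 1 in these marker lists by at most 1 call.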

How the data were processed

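RNA was sequenced from 12 libraries of peritoneal macrophages in 4 groups of 3, by the genotype and treatment labels. Libraries were made from total RNA by a standard Illumina preparation, per the labels' protocols. STAR, Cufflinks, Cuffdiff and the build mm10 are named in the submitters' processing notes, with no role or version. Counter, annotation and strand setting: not given in the sources used here. Overlapping and antisense genes therefore cannot be told apart. Judged from the numbers themselves, the deposited values are a signal in which each is a whole number of reads over a factor of its library, kept to 1 decimal. With a tolerance of 0.06 all values below 3000 were whole multiples of 1 step in each library.

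Genes reaching 1 in 3 or more libraries were tested with limma 3.58.1 in R 4.3.3 (trend, 1 mean per group, all 12 libraries, values not rescaled) on log2(value + 1), which understates the change of low genes. P-values were Benjamini-Hochberg adjusted over 20419 genes and called below 0.05 with no minimum change. The fit was tested on simulated data. The members, lists and rules were chosen with earlier results of these data known. The rule for named genes took Bhlhe40, Bhlhe41, Lyz2, up to 6 called genes per origin and sign without overlap between labels and with a mean of at least 20, up to 4 members per list and a set panel; a gene that it takes is not reported here. Alternatives were edgeR 4.0.16 and DESeq2 1.42.0 on the recovered reads, other scalings, pseudocounts and filters, the linear scale, a replicate block and each library left out. Replicates differed by more than sampling noise (chi-square per degree of freedom 7.35 to 72.2 over 12 pairs). Promoter windows are RefSeq's (GRCm38.p6), matched by symbol for 60.2% of the tested genes; gene positions are from GENCODE M21 (mm10).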

Additional observations from a re-analysis of the deposited data

Results flagged for a closer look

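The effect of LPS differed between the genotype labels, by the interaction test itself, for 1944 genes in the positive and 1902 genes in the negative direction. Both counts are the main result described above, and no further group difference was set apart.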

How the results depend on the processing

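With a minimum log2 change of 1 the positive calls fell to 254 and the negative ones to 109, with 194 from unequal controls, 68 from unequal LPS levels, 3 with opposite gaps and 44 with gaps of one sign; fewer genes can pass such a test by its construction. The stricter origin rule left 445 from unequal controls and 415 from unequal LPS levels. Leaving out 1 library at a time gave 1676 to 2072 positive and 1536 to 1959 negative calls, 820 to 979 from unequal controls, 1106 to 1493 from unequal LPS levels, 358 to 461 with opposite gaps and 775 to 1014 with gaps of one sign. No pairing of the libraries by replicate number was seen. The deviations of 18 same-numbered pairs correlated at -0.066 to 0.028, and 2 of 12 libraries matched their own number best. A pairing of small effect would not show in such correlations, so it is not excluded. With the replicate number as a block 1824 positive and 1704 negative calls were made, and 3486 of the 3846 calls were shared. Apart from the minimum change and the linear scale, 75 of 92 named genes kept their call and direction under every alternative. Ifnb1 turned positive with DESeq2 (0.11) and edgeR (0.49). The calls of Bhlhe41, Ifnb1, Ptgs2, Dbp and Gata6 changed when 1 library was left out; Bhlhe41 became called at -0.55 without replicate 2 of either LPS group, and the cause was not tested. Calls with a group at 3 reads or fewer numbered 279 (7.25%), and their log2 size depends on the pseudocount.

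On the linear scale 22 of the 87 called named genes changed sign, counting signs alone without a test. Some did so by a difference of the increases that was small beside the spread, such as -353 for Ifi206 (SDs of 590 and 938 with LPS). Ptgs2, which was not called, changed sign too, with a difference of the increases of -149582. The difference of the increases, labelled minus Lyz2Cre, was -7765 for Ifit3, -6695 for Ifi44, -353 for Ifi206, -3769 for Ifi213, -341 for Nlrc5, -2727 for Tap1, -2272 for H2-Q7, -117476 for Acod1, -140998 for Nos2, -8856 for Fpr2, -427 for Lcn2, -43781 for Il6, -61966 for Tnf, -62203 for Saa3, -5709 for Il12a, -4664 for Cxcl3, -2199 for Hk2, -493 for Nfkbiz, -9473 for Socs3, -13018 for Cd14, 49.3 for Bnip3 and 1490 for Vegfa.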

Other observations

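The LPS effect itself changed direction between the labels for part of the 3846 calls. LPS lowered 136 genes in Lyz2Cre and raised them in the BHLHE40-Fl-labelled libraries, and the reverse held for 144. Nfil3, a basic leucine zipper repressor of the clock and of immune genes, was among the former. It fell from 922 ± 88.5 to 674 ± 56.2 in Lyz2Cre and rose from 296 ± 18.2 to 1203 ± 17.4 in the labelled libraries, with an interaction of 2.47 ± 0.13. The most frequent patterns were a rise in both labels with the larger rise in the labelled libraries (773 genes) and a fall in both with the larger fall there (525 genes).

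Circadian clock genes, which BHLHE40 is known to repress, gave 1 positive and 4 negative calls among 19, where 9.52% and 9.31% of all tested genes were called. The negative calls fell to 2 without any of the 3 labelled controls or labelled LPS replicate 3, and ran from 2 to 6 over the alternatives without a minimum change. Rora, an activating clock receptor, differed with LPS alone, with gaps of 0.14 (limma adjusted p = 0.253) in the controls and -1.05 with LPS. Dbp, a clock output factor, stood at 131 ± 22.6 and 260 ± 11.4 in the controls and at 12.8 ± 4.54 and 11.03 ± 2.54 with LPS. Its interaction of -1.17 (limma adjusted p = 0.0348) was lost in 6 of 12 fits that left out 1 library: Lyz2Cre control replicate 1, Lyz2Cre LPS replicate 2, any of the 3 labelled controls, or labelled LPS replicate 3 (values from -1.20 to -0.92). Genes of the unfolded protein response gave 1 positive and 3 negative calls among 22, and 5 negative ones without Lyz2Cre control replicate 3. For this list and the next, the shares over all tested genes are again 9.52% and 9.31%. The 28 nuclear respiratory chain genes gave 2 positive and 0 negative calls, and 2 negative ones without labelled LPS replicate 1. The positive ones fell to 1 without labelled control replicates 1 or 3, Lyz2Cre LPS replicates 1 or 3, or Lyz2Cre control replicate 1. Gbp2b, an interferon-inducible GTPase, had one of the largest changes of order. It stood at 13.8 ± 3.43 and 5.90 ± 1.25 in the controls and at 144 ± 13.3 and 1891 ± 164 with LPS. Fam180a and Angptl7, each near 0 in Lyz2Cre, fell with LPS from 79.0 ± 11.6 to 1.23 ± 1.25 and from 167 ± 48.3 to 7.13 ± 3.04 in the labelled libraries.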
